A study of Mus musculus with 6 samples.

Results

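Type II cadherins are cell-surface adhesion proteins, and 10 of their genes with expression in neurons were followed here, Cdh6, Cdh7, Cdh8, Cdh9, Cdh10, Cdh11, Cdh12, Cdh18, Cdh22 and Cdh24. They were taken by symbol from a table of 47794 genes, of which 30152 had been tested by the authors, and all 10 were found. RNA-seq had been run on the primary somatosensory cortex of C57BL/6 mice aged 14 days. The control group, Ctrl, carried β-cat lox(ex3), a Ctnnb1 allele whose exon 3 lies between lox sites, in 3 libraries. The overexpression group, Ovp, carried the same allele together with Nex-Cre, also in 3 libraries. Nex-Cre, in which Cre is expressed from the Neurod6 locus, is active in excitatory neurons of the forebrain, so the allele stays whole in other cells of the tissue, and neither zygosity nor sex is given in the labels. The table gave 1 mean per group and gene, in reads scaled for library depth, here called scaled reads. In bulk tissue, fewer cells of a type and less RNA per cell cannot be told apart.

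Cadherins of this family bind across the cell gap through an outer repeat that carries conserved tryptophans, and mostly join cells that carry the same or a closely related family member. Their inner tails bind p120-type catenins and β-catenin, and β-catenin in turn binds α-catenin and so the actin skeleton. In cortex, hippocampus and thalamus the members mark partly different layers, areas and circuits, and several act in the choice or the strength of synapses. β-Catenin also carries canonical Wnt signals, together with TCF/LEF factors that bind DNA at a short core. Without exon 3 the protein lacks the phosphorylation sites that lead to its degradation.

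The 10 genes were selected on family membership with the Ovp and Ctrl group means already known, so their ratios are given as a description, not as a test. Cdh8 and Cdh22 had lower group means in Ovp cortex, with Ovp to Ctrl ratios of 0.809 and 0.805, and Cdh24 had a higher one, with a ratio of 1.29. The ratio next furthest from 1 was that of Cdh12, at 0.855. The other 6 members lay between a ratio of 0.913 for Cdh11 and one of 1.06 for Cdh18. By the authors' deposited table, none of the 10 members had an adjusted p under 0.05, and across the table this held for 0 of 30152 genes, which is 0%. Without adjustment the authors' p was below 0.05 for 3 of the 10 members, against 161 of 30152 genes, which is 0.534%.

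Part of the family forms a gene cluster. Cdh6, Cdh9, Cdh10, Cdh12 and Cdh18 follow each other on chromosome 15 over 10.4 Mb of GRCm38, with 1 other protein-coding gene wholly inside that span in GENCODE M21. Cdh8 and Cdh11 lie on chromosome 8, Cdh7 on chromosome 1, Cdh22 on chromosome 2 and Cdh24 on chromosome 14. The 5 genes on chromosome 15 had Ovp to Ctrl ratios from 0.855 for Cdh12 to 1.06 for Cdh18, so values on both sides of 1 occurred within the cluster. The members with the ratios furthest from 1 in either direction, Cdh8, Cdh22 and Cdh24, lie on 3 different chromosomes outside it. Gene size differed widely, from 10.1 kb for Cdh24 to 1140 kb for Cdh12.

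The sequences before the starts of these 3 genes are shown because they hold the largest ratios, with each CpG dinucleotide in capitals. They come from the RefSeq promoter table on GRCm38.p6, which had entries for 9 of the 10 members, and are given 5′ to 3′ on the gene's strand, as far as they lie before the outermost start in GENCODE M21. Cdh8 is at chr8:99416472-99416721, Cdh22 at chr2:165234854-165234987 and Cdh24 at chr14:54641365-54641614, all on the minus strand.
Cdh8: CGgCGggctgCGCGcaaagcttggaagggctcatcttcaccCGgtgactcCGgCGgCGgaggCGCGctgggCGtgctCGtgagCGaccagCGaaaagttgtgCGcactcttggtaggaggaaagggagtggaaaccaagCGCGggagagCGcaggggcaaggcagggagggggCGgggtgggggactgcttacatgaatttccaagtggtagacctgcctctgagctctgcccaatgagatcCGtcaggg
Cdh22: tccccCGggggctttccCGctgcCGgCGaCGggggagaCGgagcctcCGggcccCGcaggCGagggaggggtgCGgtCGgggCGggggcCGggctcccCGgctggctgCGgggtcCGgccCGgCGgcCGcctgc
Cdh24: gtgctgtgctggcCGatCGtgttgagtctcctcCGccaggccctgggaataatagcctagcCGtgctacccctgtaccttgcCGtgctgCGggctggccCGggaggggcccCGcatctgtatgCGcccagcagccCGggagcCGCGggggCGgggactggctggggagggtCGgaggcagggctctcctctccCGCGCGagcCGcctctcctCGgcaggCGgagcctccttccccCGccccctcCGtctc
The stretches hold 20 CpG dinucleotides in 250 bases for Cdh8, 19 in 134 for Cdh22 and 22 in 250 for Cdh24. Over the whole RefSeq window, from 250 bases before to 50 after the start, GC content was 62.3% for Cdh8, 76.3% for Cdh22 and 73.3% for Cdh24. The median of all 32851 promoters in that table was 52.7%. Of the other members with an entry, Cdh18 and the first 2 of the 3 promoters of Cdh7 were also above 60% GC, while Cdh10 had 37.7%. GC-rich starts thus occurred in members with a lower, a higher and a nearly equal Ovp mean.

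A TCF/LEF core, the letters CTTTG followed by A or T at each of the next 2 positions, was searched on both strands of the same windows. It occurred in 2 of 11 promoters of members, which is 18.2%, and in 16.9% of all 32851 promoters. The matches were 1 in Cdh6 and 2 in the third promoter of Cdh7. Cdh8, Cdh22 and Cdh24 had 0 in this window. The Cdh6 stretch, at chr15:13173676-13173925 on the minus strand, is shown with the match in capitals, which reads CTTTGTT on the other strand.
Cdh6: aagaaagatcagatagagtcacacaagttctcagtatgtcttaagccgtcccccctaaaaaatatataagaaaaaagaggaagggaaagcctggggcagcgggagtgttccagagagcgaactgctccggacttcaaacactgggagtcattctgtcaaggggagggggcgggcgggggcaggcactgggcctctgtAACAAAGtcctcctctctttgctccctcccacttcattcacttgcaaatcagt
A match describes letters only and is no evidence of binding. Cdh6 and Cdh7 had Ovp to Ctrl ratios of 0.936 and 0.940.

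The members' transcripts shared little sequence. The longest exact stretch shared by transcripts of any 2 members was 30 bases, between Cdh12 and Cdh7. Of the 50-base stretches of a member's transcripts, at most 3.72% also occurred in another gene, for Cdh9, where the other gene is the antisense transcript Gm49127. Cdh8 shares 23 exon bases with the antisense gene Gm15679, whose means were 3.19 in Ctrl and 1.47 in Ovp. Longer overlaps were those of Cdh9 with Gm49127, 224 exon bases, and of Cdh12 with Gm49685, 198 exon bases on the same strand. Neither Gm49127 nor Gm49685 has a value among the authors' genes. Their part in the Cdh9 and Cdh12 values was not tested. Cdh24 lies 796 bases beyond the end of Acin1, a gene of an RNA-processing protein on the same strand, with means of 2562 in Ctrl and 2790 in Ovp, a log2 ratio of 0.12. The share of Acin1 transcripts in the Cdh24 value was not tested.

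Levels between genes were compared per kb of exon, with the union of exons in GENCODE M21 as length, since no source names the authors' annotation. Cdh11, known from mesenchyme as OB-cadherin and also found in neurons, was highest, with 223 scaled reads per kb in Ctrl and 204 in Ovp. Cdh8, a cadherin of particular cortical areas and layers, followed with 163 in Ctrl and 132 in Ovp. Cdh22, named for its expression in pituitary and brain, had 147 ± 18.7 (SD, n = 3) per kb in Ctrl. Cdh9, known from synapses between dentate gyrus and CA3, had 131 ± 18.0 (SD, n = 3), so these neighbours did not differ beyond their spread. Cdh10, a cadherin of cortical and hippocampal circuits, had a mean of 115 per kb.

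Cdh18 and Cdh12, brain cadherins with very long genes, had 92.8 ± 14.6 and 83.4 ± 3.20 per kb in Ctrl (SD, n = 3), again within their spread. Cdh24 had 68.4 ± 11.3 per kb (SD, n = 3), below Cdh12 by more than either SD. Cdh6, named for kidney and also found in neurons of several cortical areas, had 52.5 ± 5.04 per kb, and Cdh7 was lowest with 40.7 ± 2.59 (SD, n = 3). Among genes whose mean reached 10, the members ranged per kb in Ctrl from percentile 36.1 for Cdh7 to percentile 76.1 for Cdh11. A long alternative exon lengthens the union and lowers the value per kb.

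In Ovp cortex Cdh11 was again highest and Cdh7, at 38.2 per kb, lowest, but the order between them differed. Cdh24 stood above Cdh12 there, with 88.2 ± 7.33 against 71.3 ± 7.61 per kb (SD, n = 3). Cdh9, at 137 ± 14.2 per kb (SD, n = 3), came before Cdh8 at 132 and Cdh22 at 118 ± 7.91 (SD, n = 3), both of which were above it in Ctrl. Cdh10 at 110.03, Cdh18 at 98.0 and Cdh6 at 49.2 per kb had the same places as in Ctrl. The difference in order between the groups was not tested.

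**Figure D1:**
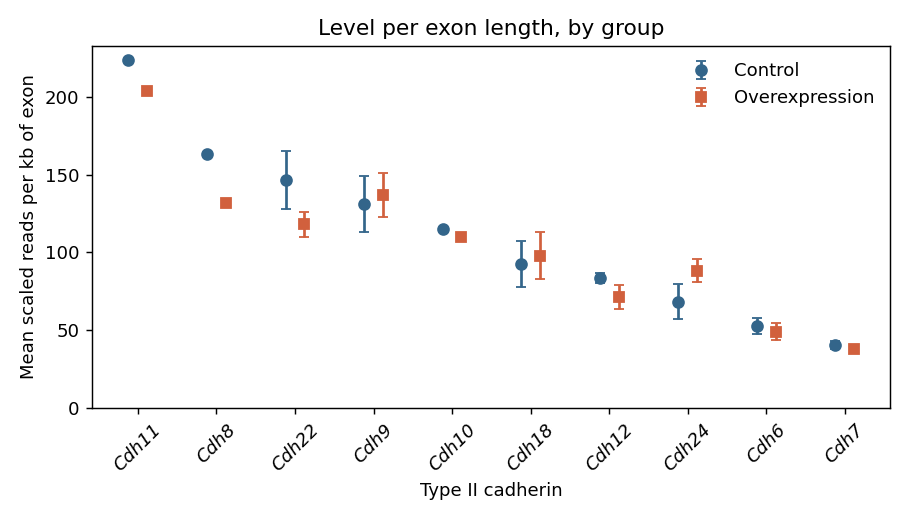
Group means of the 10 type II cadherins per kb of exon (vertical axis, scaled reads per kb) in control (circles) and overexpression cortex (squares), ordered by the control level. Bars are the SD over 3 libraries and are missing for Cdh8, Cdh10 and Cdh11, which have group means only. Cdh11 is highest and Cdh7 lowest in both groups.

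Values of single libraries were read back from the group means for 7 of the 10 members, since a mean of 3 libraries is a sum of whole reads times the worth of 1 read in each. Letters A, B and C name the libraries of a group from the deepest to the shallowest, and which replicate each one is cannot be told. For Cdh7, Cdh12, Cdh18, Cdh22 and Cdh24 only 1 combination of reads was found. For Cdh6 the Ovp mean left 2 combinations, and the Ovp mean of Cdh9, 484.6, was above the 450 up to which this search was run. For both, 1 combination was found when libraries were searched within 1.5-fold of the Ovp mean, which favours values close to it. Cdh8, Cdh10 and Cdh11 had means too high to separate, and their spread is unknown. No label says that the libraries came from separate animals, so the SDs may be technical in part.

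Cdh22 had library values of 622, 515 and 493 scaled reads in Ctrl and 411, 469 and 433 in Ovp. All Ovp libraries were below all Ctrl libraries, with a gap of 24.3 between the nearest, and Ctrl A was the highest of all. The group means were 543 ± 69.0 and 437 ± 29.3 (SD, n = 3). limma, fitted to all 9769 genes with library values and a mean from 10 up, gave a log2 difference of -0.31 ± 0.10 (SE), with a 95% interval from -0.53 to -0.08. Without Ctrl A the log2 difference was -0.21.

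Cdh24, which encodes a widely expressed type II cadherin, had 194, 252 and 270.2 scaled reads in Ctrl and 320.2, 325 and 278 in Ovp. The groups did not overlap, but Ovp C was only 8.15 above Ctrl C, and Ctrl A was the lowest of all. Means were 239 ± 39.5 in Ctrl and 308 ± 25.6 in Ovp (SD, n = 3). The limma log2 difference was 0.38 ± 0.14 (SE), with a 95% interval from 0.08 to 0.67, and 0.23 without Ctrl A. Ctrl A thus held both the highest Cdh22 and the lowest Cdh24 value. The summed level of 4 striatal markers was also lowest of all in Ctrl A, at 697 scaled reads against 829 to 1152 in the other libraries. In Ovp, however, library A had the lowest striatal sum, 829, and the lowest Cdh22 value. Ovp C had the highest sum, 1152, and the lowest Cdh24 value of its group. The part of these markers in the Cdh22 and Cdh24 values was not tested. Over the 6 libraries Cdh22 and Cdh24 had a Pearson r of -0.90, given as a description.

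Cdh12, also called brain cadherin, had 511, 549 and 517 scaled reads in Ctrl and 495, 399 and 454 in Ovp. The groups did not overlap, with 16.5 between the nearest values, and Ovp B was the lowest. The limma log2 difference was -0.23 ± 0.10 (SE), with a 95% interval from -0.44 to -0.02, and -0.15 without Ovp B. Cdh12, Cdh22 and Cdh24 were the members without overlap, 3 of 7, against 6.95% of the 11558 genes with library values read the same way. With the 2-fold search alone it was 3 of 5, against 7.16% of 9769 genes, of which 2.75% were lower and 4.4% higher in Ovp. Since the members were picked with this contrast known, nothing is read from these shares.

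limma called 0 of 9769 genes at an adjusted p under 0.05, which is 0%. Its unadjusted p was under 0.05 for 208 genes, which is 2.13%. The intervals above show precision only and are not adjusted for the number of genes.

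**Figure D2:**
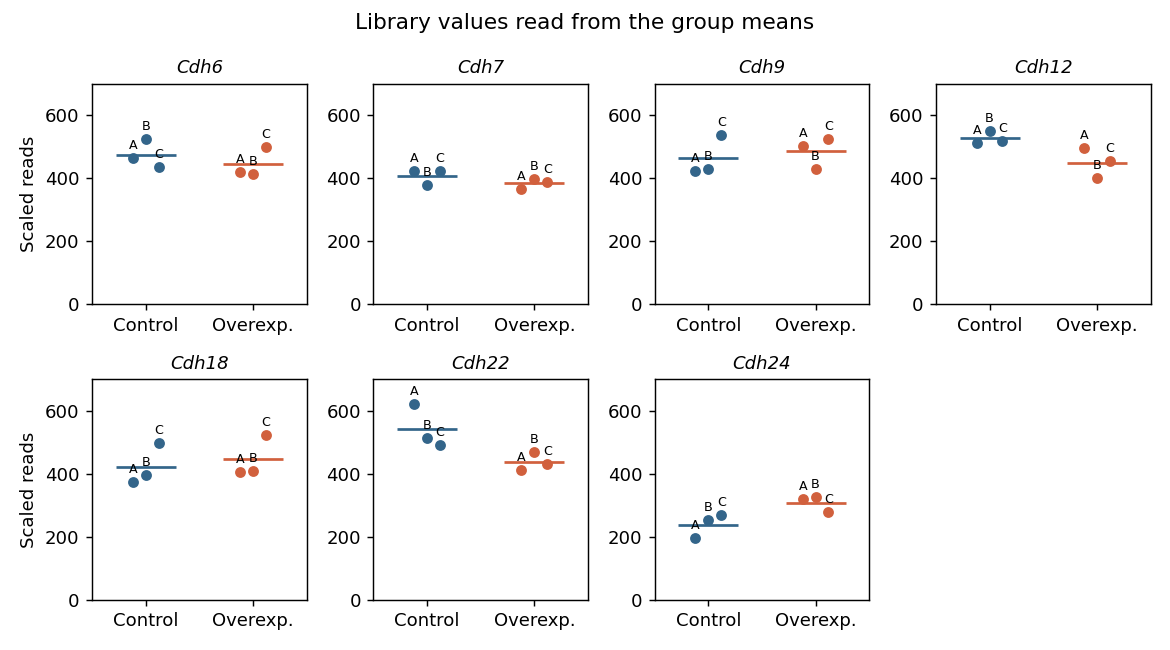
Scaled reads (vertical axis) of 7 type II cadherins in each of the 3 control and 3 overexpression libraries, labelled A, B and C, with a line at the group mean. The groups do not overlap for Cdh12, Cdh22 and Cdh24, and library C is high for Cdh18 in both groups.

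The other 4 members with library values had overlapping groups. Cdh18 had 374, 395 and 498 scaled reads in Ctrl and 407, 408 and 525 in Ovp, with library C highest in each group. Its limma log2 difference was 0.08 ± 0.13 (SE), with a 95% interval from -0.20 to 0.36, and lay between -0.04 without Ovp C and 0.20 without Ctrl C. Cdh9 had 424, 429.85 and 537 in Ctrl and 501, 428 and 525 in Ovp, and library C was again the highest in each group. Its log2 difference was 0.07 ± 0.12 (SE), from -0.19 to 0.33. Cdh9 and Cdh18 had a Pearson r of 0.86 over the 6 libraries, as a description.

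Markers of striatum, which borders on cortex in a dissection, varied over the same libraries. The summed level of the 4 with library values was 697, 874 and 1071 scaled reads in Ctrl and 829, 975 and 1152 in Ovp, highest in library C of each group. All 7 striatal markers had higher group means in Ovp, with log2 ratios from 0.08 to 0.50, and the summed ranges of the groups overlapped. The 1 deep-layer marker with library values was also highest in library C of each group. It had 223, 254 and 317 scaled reads in Ctrl and 260, 229 and 335 in Ovp. The part of these striatal and deep-layer markers in the Cdh9 and Cdh18 values was not tested.

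Cdh7 had the lowest SD on the log2 scale, pooled over the groups, of the 7 members with library values, with 423, 378 and 423 scaled reads in Ctrl and 364, 398 and 388 in Ovp. Its limma log2 difference was -0.09 ± 0.09 (SE), with a 95% interval from -0.29 to 0.12. Cdh6 had 464, 524 and 435 in Ctrl and 419.6, 412 and 499.8 in Ovp, where Ovp C stood inside the Ctrl range. Its log2 difference was -0.10 ± 0.11 (SE), from -0.34 to 0.15. The summed level of 4 meningeal and fibroblast markers was 372, 459 and 397 in Ctrl and 251, 426 and 472 in Ovp. Ctrl B and Ovp C were thus highest in their group for Cdh6 and for these markers, and their part in the Cdh6 values was not tested.

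**Figure D3:**
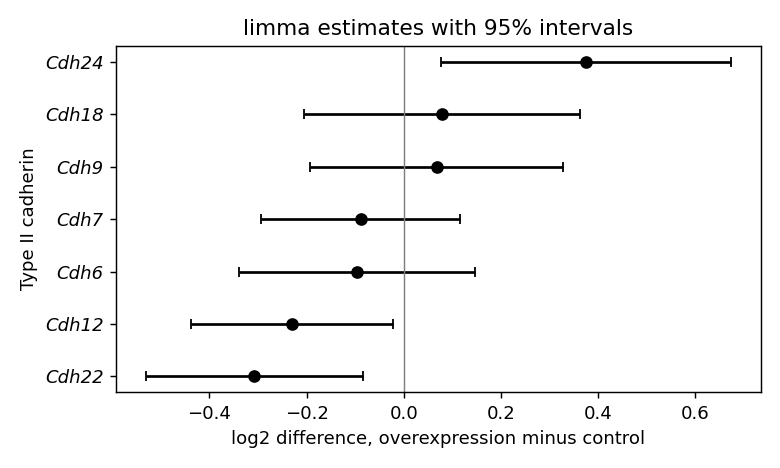
limma log2 difference of 7 type II cadherins, overexpression minus control (horizontal axis), as points with 95% intervals that are not adjusted for the number of genes. The intervals of Cdh12 and Cdh22 lie below 0 and that of Cdh24 above 0, and those of Cdh6, Cdh7, Cdh9 and Cdh18 include 0.

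Cdh8, Cdh10 and Cdh11 were the most abundant members by scaled reads. Cdh8 had a mean of 1263 in Ctrl and 1022 in Ovp, a log2 ratio of -0.31. Cdh10 had 1159 and 1106, a log2 ratio of -0.07, and Cdh11 had 1989 and 1816, a log2 ratio of -0.13. The authors' deposited table lists p-values of 0.0236 for Cdh8, 0.0191 for Cdh22 and 0.014 for Cdh24 before adjustment, and an adjusted p of 1 for each of the 10 members. The summed mean of all 10 was 7487 in Ctrl and 6896 in Ovp, a log2 ratio of -0.12, to which Cdh8 and Cdh11 gave the largest parts.

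Of the 10 members 7 had lower and 3 had higher means in Ovp cortex, with a median log2 ratio of -0.09. Over all tested genes with a value above 0 in both groups the median was -0.01. Of the 7665 genes with a mean from 200 to 2000 scaled reads, the range that holds the members, 55.6% were lower in Ovp and 98.1% had means within 1.2-fold of each other. Of the members 7 of 10 did. The authors' deposited p was below 0.05 before adjustment for 46 of these 7665 genes, which is 0.6%.

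**Figure D4:**
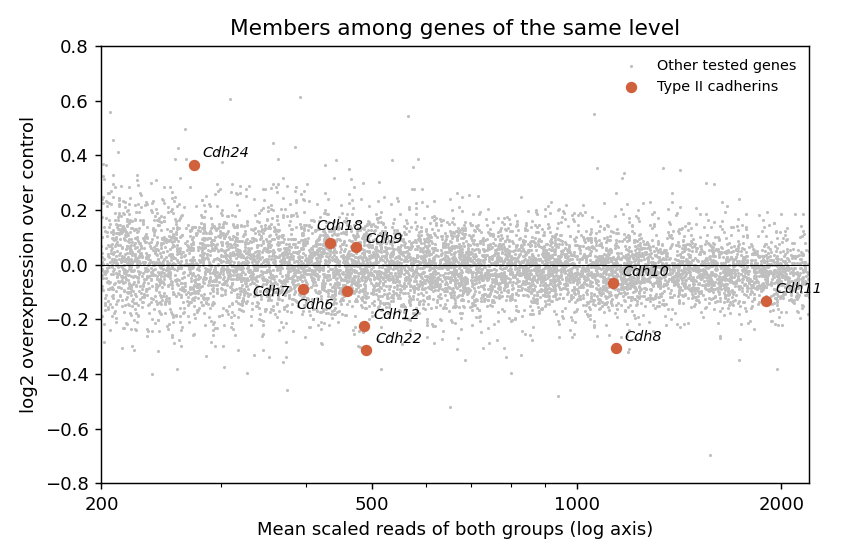
log2 ratio of the group means, overexpression over control (vertical axis), against the mean of both groups in scaled reads (horizontal log axis), for the 10 type II cadherins and 7858 other tested genes; 2 genes beyond the vertical range are not drawn. Cdh24 stands above and Cdh8, Cdh12 and Cdh22 stand below the bulk of genes of like level.

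The 3 remaining genes of the family had ratios closer to 1 or low levels. Cdh5, the cadherin of vascular endothelium, had 490.2 scaled reads in Ctrl and 501 in Ovp, and Cdh20 had 563 and 549.96. Cdh19, known from glia of peripheral nerve, had 109, 103 and 88.2 in Ctrl and 168, 122 and 67.3 in Ovp, so the groups overlapped. Among 6 type I and related cadherins the authors' deposited table lists 0 below 0.05 with or without adjustment, and 3 had higher and 3 lower means. N-cadherin, Cdh2, the main type I cadherin of neurons, had 2972 in Ctrl and 3075 in Ovp, and Cdh13, which is held in the membrane by a lipid anchor, had 2396 and 2679. The median log2 ratio of these 6 was 0.02, beside -0.09 for the 10 type II members, and the difference between the families was not tested.

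The catenins, which bind the cadherin tails directly or, for α-catenins, through β-catenin, gave 0 calls among 9 genes. Of these 4 had higher and 5 lower means. Ctnnb1, the gene of β-catenin, had 7574 scaled reads in Ctrl and 6391 in Ovp, a log2 ratio of -0.25, and was the only one of these catenins whose p in the authors' deposited table was below 0.05 before adjustment. A value for the whole gene does not show the loss of exon 3 and so gives no check of the labels. Neurod6, whose locus holds Nex-Cre, had 1942 scaled reads in Ctrl and 1199 in Ovp, a log2 ratio of -0.70. Its p in the authors' deposited table was 5.04e-05 before and 0.76 after adjustment. The groups differ in Nex-Cre itself as well as in exon 3, and the parts of these in the members' values cannot be told apart. Ctnna2, the neuronal α-catenin, had 3513 and 3416, and Ctnnd2, the neuronal δ-catenin, had 5786 and 5499. Ctnnd1, which encodes p120-catenin, had 199.7 and 201. Of 12 junction partners and cadherin proteases 0 were called, 3 were higher and 9 lower, with a median log2 ratio of -0.05. The highest of these by mean were Magi1, a scaffold protein of junctions, with 2782 and 2858, and Ptprf, a receptor tyrosine phosphatase of the LAR family, with 2598 and 2383.

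Markers of the labelled tissue were present, and 0 genes of the marker lists passed the authors' adjusted threshold. All 8 upper-layer markers and 9 deep-layer markers were detected, with lowest Ctrl means of 137 and 264. Layer 4 markers, which define the input layer of somatosensory cortex, were lower in Ovp for 5 of 6, with a median log2 ratio of -0.23. Rorb, the highest of them by mean, was the one that was higher, with 1505 scaled reads in Ctrl and 1596 in Ovp. The summed means of all 6 were 3264 in Ctrl and 3181 in Ovp. The sum of the 4 with library values, which leaves out Rorb, was 809 to 949 in Ctrl and 671 to 775 in Ovp. For this sum the groups did not overlap, as for Cdh12 and Cdh22. Taken alone, Scnn1a and Kcnh5 had overlapping groups, while Rspo1 and Hsd11b1 did not. The part of these markers in the cadherin values was not tested. All 6 oligodendrocyte markers had higher means in Ovp, with log2 ratios from 0.08 to 0.12, and 6 of 7 interneuron markers had lower ones, with a median of -0.13. The summed hippocampal markers ranged from 313 to 699 in Ctrl and from 311 to 648 in Ovp. Of 6 thalamic markers Gbx2 was at 0 in Ctrl and at 0.90 scaled reads in Ovp, and the others had reads in both groups. The highest of them was Rora, with 1498 in Ctrl and 1387 in Ovp. Ctrl B stood apart for Ttr, a choroid plexus gene, with 713 scaled reads against 76.4 and 79.4 in the other Ctrl libraries, and without Ctrl B the log2 difference was -0.34 for Cdh22 and 0.42 for Cdh24.

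Genes most like each member over the 6 libraries were searched among 4214 genes whose mean reached 100, over points that share library and depth. For Cdh22 these were Dmap1 and Tesk1, with Pearson r of 0.98 and 0.96. For Cdh24 they were D630044L22Rik and Gss, both with r of 0.99. For Cdh12 they were Ccnf and Top3a, with r of 0.99 for both, and for Cdh18 Syk and Rspo2, with r of 0.998 and 0.983. Cdh9 was closest to Fancl and Grik1, with r of 0.99 and 0.96, and Cdh7 to Bet1l and Ngrn, with r of 0.98 and 0.96. Cdh6 was closest to Arhgap19 and Slc6a20a, with r of 0.99 for both. With 6 libraries and so many genes, high values of r arise for any gene.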

How the data were processed

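Libraries were made with an Illumina TruSeq kit from 3 ug of Trizol-extracted RNA, per the labels' protocols, 3 for each group. The submitters' processing notes name TopHat2 2.0.9 and Bowtie2 2.0.6. What build, annotation, counter, strand setting and test were used is not given in the sources used here. Per gene and group, the authors deposited 1 signal value, the mean of scaled read counts, as read from the values, beside log2 fold changes and p-values, raw and adjusted, per the file headers. The deposited log2 values differed from those of the group means by at most 4.99e-05. Group means summed to 19016749 in Ctrl and 18602579 in Ovp. Symbols were found for 46488 of 47069 Ensembl IDs, and 725 IDs were of unannotated transcripts.

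Library values were read from the group means, which carry 10 significant digits. Exactly 1 combination of whole reads was found for 99.97% of 23575 Ctrl means up to 1000 and for 99.3% of 21303 Ovp means up to 450. Every combination was searched up to a mean of 500 in Ctrl and 100 in Ovp, and above that only libraries within 2-fold of the mean. Of Ovp means from 200 to 450 with 1 combination within 2-fold, 98.6% had all libraries within 1.5-fold. Libraries beyond 2-fold could not enter this share, so it may be too high. Scaling factors, which follow depth, were 0.982, 0.926 and 0.907 in Ctrl and 1.23, 1.06 and 0.966 in Ovp. On log2(value + 1), which understates changes of low genes, limma 3.58.1 (R 4.3.3) was run with its trend option, adjusted by the Benjamini-Hochberg method. Both steps were also run on simulated data with the same spread between libraries for every gene. Such data seldom hold a library beyond 2-fold of a high mean, so nothing about such libraries is read from them. Cdh6 and Cdh9 come from the fit of 11558 genes with the 1.5-fold window. The members and all gene lists were chosen with earlier results of these data known. All members were named, as were all cadherins and catenins open to naming. The highest genes of other lists by mean and the 2 genes most like each member were also named. Gm15679, Gm49127, Gm49685, Acin1, Ttr, Gbx2, Neurod6, Scnn1a, Kcnh5, Rspo1 and Hsd11b1 were named for their position or values. The planned comparison of protein sequences was not made.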

Additional observations from a re-analysis of the deposited data

How the results depend on the processing

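Dividing each group by its column total raised every log2 ratio by 0.0318, and centring on the median of genes whose mean reached 100 raised it by 0.0175. The direction of each of the 10 members was kept under both, while a pseudocount of 1 cannot change a direction. The median log2 ratio over the members was -0.0924 as deposited, -0.0607 by column total and -0.075 after centring, and their mean was -0.072. All 10 members had a mean that reached 10, so that filter could only leave the median at -0.0924. limma called 1 gene with no filter on low values, and from 0 to 1 genes with a library left out, the 1 arising without Ctrl A. Genes with an unadjusted p under 0.05 numbered 208 of 9769, but 327 without the trend. With a library left out they ranged from 151 without Ctrl A to 367 without Ctrl C. With no filter they numbered 706 of 22826. The 1.5-fold window was chosen after seeing the data, as was the count of members without overlap with a library left out, which can only stay or rise and was 3 to 4. With a library left out, log2 differences ranged from -0.37 to -0.21 for Cdh22, from 0.23 to 0.47 for Cdh24, from -0.30 to -0.15 for Cdh12 and from -0.14 to -0.05 for Cdh7, and that of Cdh18 took both signs. No paired analysis was possible because the library values carry no replicate number. The spread of Cdh8, Cdh10 and Cdh11 is unknown. The median 95% interval of a gene reached 0.45 on the log2 scale to either side, and those of the 7 members with library values were narrower.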
